A study of Arabidopsis thaliana with 6 samples.

Results

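AT1G26800 encodes MPSR1, a RING-type ubiquitin ligase of Arabidopsis thaliana, and it is 1 of 13355 genes with a probe set named for them alone on the arrays of this study. It was chosen because its signal was lower after estradiol while proteasome subunits were higher, so the values of that contrast are given for it as a description, with no test. The name MPSR1 comes from general knowledge of the locus. The annotation used here lists the gene by its locus tag, with 1 probe set.

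A RING ligase brings a ubiquitin-charged E2 enzyme to a substrate protein, and chains of ubiquitin then mark that protein for the 26S proteasome. MPSR1 is known as a cytoplasmic ligase of protein quality control that binds misfolded proteins and marks them with ubiquitin. It is also known to mark itself, which keeps its own protein level low in unstressed plants, and to help keep proteasomes intact under proteotoxic stress. The arrays measured its transcript, and neither its protein nor its activity.

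All 6 samples were whole Col-0 seedlings of the T3 generation, aged 14 days and grown in 16 h light and 8 h dark. All of them, the controls included, carried the constitutively expressed chimeric factor XVE and a LexA-driven transgene for RPX∆C. It derives from RPX, a NAC transcription factor known to regulate proteasome genes. The 3 estradiol samples received 10 µM of the inducer and the 3 mock samples did not, and both were harvested after 2 h. The study's title gives its question as the direct targets of RPX. The labels name ethanol as the mock agent in one place and medium without inducer in another, and no seedlings without the transgene are among the samples, so effects of estradiol, vehicle and transgene cannot be told apart. The number of independent lines and of seedlings per sample is not stated in the labels, and the titles call the samples biological replicates. The induced transgene was not analysed here, since no probe set is listed for RPX.

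The arrays had a common scale, with a median signal between 35.7 and 38.7. Estradiol replicate 3 stood apart in the 3'/5' signal ratio of the actin control, a sign of RNA quality, at 15.2 against 4.37 to 6.11 on the other arrays. Mock replicates 1 and 2 stood apart in the 25S rRNA control, at 302 and 286 against 918 to 1534 on the others. Precision is limited by the number of arrays, and without detection calls it is not known which dim probe sets lie above background.

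The signal of AT1G26800 was 122, 112 and 109.8 on mock replicates 1, 2 and 3. On estradiol replicates 1, 2 and 3 it was 70.3, 64.95 and 73.6. The groups did not overlap: the lowest mock array was 1.49 times the highest estradiol array. Groups lay apart in this direction for 7.74% of all probe sets. Because the gene was chosen from this contrast, nothing is read from that.

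The mean signal was 114 ± 6.49 in mock, and 69.6 ± 4.37 with estradiol (SD, n = 3 each), so the estradiol mean was 60.8% of the mock mean. On the scale log2(signal + 16), the difference estradiol minus mock was -0.61 ± 0.0973 (SE from limma), where the median difference over all probe sets was -0.03. The 9 ways to set an estradiol array against a mock array gave ratios between 0.533 and 0.671. All had to lie below 1, since the groups did not overlap, so nothing is read from that. In whole seedlings, fewer cells with the transcript and less transcript per cell cannot be told apart.

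**Figure D1:**
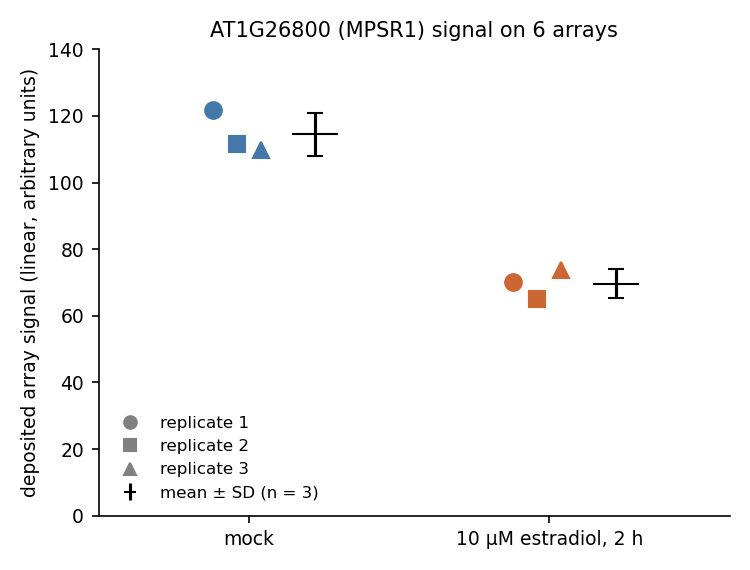
Deposited signal of AT1G26800 (linear, arbitrary units, y axis from 0) on each array by treatment, with the mean and SD of 3 arrays beside the points. The 3 mock arrays lie between 109.8 and 122 and the 3 estradiol arrays between 64.95 and 73.6.

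The transcript was of middle abundance on these arrays. Its signal exceeded that of 74.1% to 76.4% of all probe sets on the mock arrays and of 62.5% to 65.8% on the estradiol arrays. Its place among the probe sets therefore differed between the groups as its signal did, which restates the contrast it was chosen for. Of the 13513 single-gene probe sets, 79 had a more negative log2 difference.

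Its spread within the groups was small, which may also have entered the choice. The highest mock array was 1.11 times the lowest, and the highest estradiol array was 1.13 times the lowest. Of 1155 single-gene probe sets with a similar mean (within 0.25 log2 units), 45 had a smaller SD within the groups.

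The arrays that stood apart in the controls can be read beside these values. Mock replicate 3, with the high 25S rRNA signal, was the lowest mock array at 109.8, close to the 112 of replicate 2, which had the low one. Estradiol replicate 3, with the raised 3'/5' ratio, was the highest of its group. Leaving out estradiol replicate 3 gave AT1G26800 a log2 difference of -0.64, and leaving out replicate 3 of both groups gave -0.67. Set against mock replicate 3 alone, the estradiol arrays gave -0.56.

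Heat-shock proteins and other chaperones refold or hold misfolded proteins, the same class of substrate that MPSR1 marks. Of 32 listed chaperone and heat-shock genes, which are mainly cytosolic, 10 were measured, and none passed the threshold (limma, Benjamini-Hochberg adjusted p under 0.05) that 0.114% of all probe sets passed. At an unadjusted p under 0.05, 1 of the 10 was lower and 0 were higher, beside 1042 lower and 900 higher of all 22746 probe sets. All 10 log2 differences were negative, with a median of -0.99, against -0.03 over all probe sets. Negative differences were found in 12992 of the 22746 probe sets.

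Inside the mock group, 9 of the 10 genes had a wider range than AT1G26800, whose highest mock array was 1.11 times its lowest, and in 9 of 10 mock replicate 3 was the lowest mock array. The ratio of highest to lowest mock array ran from 1.06 in SGT1A, a co-chaperone of Hsp90, to 38.7. AT1G53540, which encodes a small heat-shock protein, had signals of 1715, 1507 and 44.3 on mock replicates 1, 2 and 3 and of 391, 356 and 38.9 on the estradiol arrays. Replicate 3 was by far the lowest array in both of its groups, and the groups overlapped. It was named after its values were seen, as the gene of the list with the widest mock range, and SGT1A as the one with the narrowest.

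Hop3, a co-chaperone that links Hsp70 and Hsp90, had signals of 273, 217 and 57.8 in mock, and of 59.8, 79.9 and 30.4 with estradiol (a log2 difference of -1.29 with a limma adjusted p = 0.579). Hsp70-2, a cytosolic Hsp70, had 151, 158 and 66.3 in mock, and 73.3, 86.7 and 66.1 with estradiol (difference on the log2 scale -0.55, limma adjusted p = 0.652). In both genes mock replicate 3 lay inside the range of the estradiol arrays. The summed signal of the 10 genes was 6678 and 6120 on mock replicates 1 and 2, 1162 on mock replicate 3, and 1090.3 to 2516 on the estradiol arrays. The median log2 difference of the list depended on single arrays. Leaving out mock replicate 1 gave -0.50, leaving out mock replicate 2 gave -0.52 and leaving out mock replicate 3 gave -1.69. Leaving out estradiol replicate 3 gave -0.48. Against mock replicate 3 alone it turned to 0.31. The part of heat-shock state in the value of AT1G26800 was not tested. Under that same control its own log2 difference was -0.56.

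**Figure D2:**
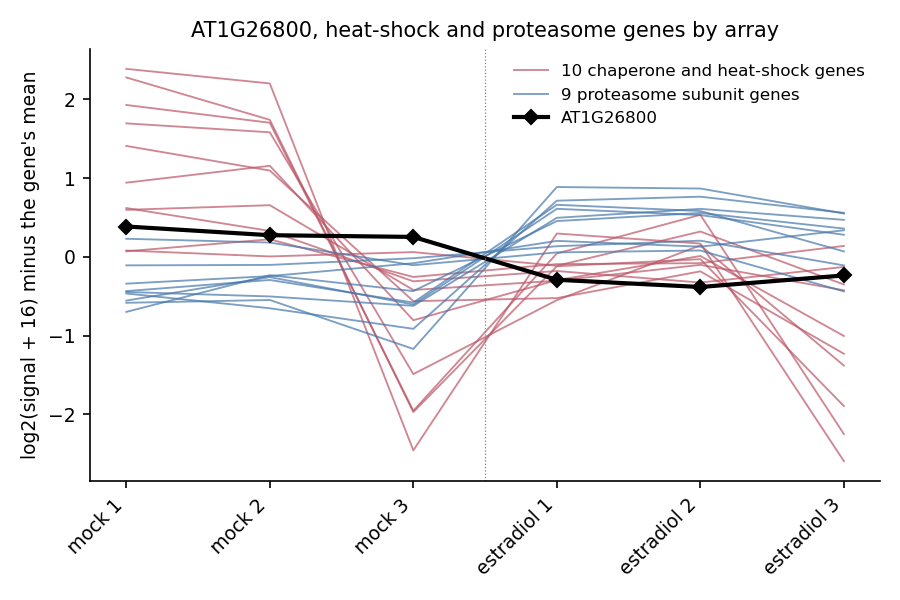
Values of log2(signal + 16) minus each gene's mean over the 6 arrays, for AT1G26800, the 10 measured chaperone and heat-shock genes and the 9 measured proteasome subunit genes. Lines join the values of 1 gene, and the order of arrays within a group has no meaning. In 9 of the 10 chaperone and heat-shock genes mock replicate 3 is the lowest mock array, by little in some, while AT1G26800 stays within 109.8 to 122 signal units on them.

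The 26S proteasome, which degrades what ubiquitin ligases mark, had 9 of 52 listed subunit genes measured. Their higher signal was named in the choice of AT1G26800, so it is no independent result here. AT1G45000, an ATPase subunit of the 19S particle known as RPT4B, and AT1G04810, the scaffold subunit RPN2B, passed the threshold, beside a background of 0.114% of probe sets higher. The median log2 difference of the 9 was 0.91, with a range from -0.20 in AT5G45620 to 1.53 in AT5G23540. The groups lay apart with estradiol higher in 7 of the 9, beside 5.79% of all probe sets. They overlapped in AT5G45620 and in AT1G75990, which had a log2 difference of 0.15. AT1G45000 had signals of 464, 446 and 409 in mock, and 906, 982 and 889.6 with estradiol (difference on the log2 scale 1.05, limma adjusted p = 0.045). AT1G04810 had a difference of 1.36 on the log2 scale (limma adjusted p = 0.0458). Both calls were lost when any single mock array, estradiol replicate 1 or estradiol replicate 2 was left out, where 0 of the 9 passed. The number that passed stayed at 2 without estradiol replicate 3.

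The other genes of the ubiquitin system were taken from 4 lists with 276 loci, of which 49 were measured. Of the 49, 0 passed limma's adjusted threshold in either direction. At an unadjusted p under 0.05, 3 were higher and 2 were lower, beside 900 higher and 1042 lower of all 22746 probe sets. Their median log2 difference was -0.01, with a range from -0.56 to 0.43. On this scale the difference of AT1G26800, at -0.61, lay below that of each of them. The constant added to the signals (pseudocount) understates the change of dim genes, and on the linear signal the order did not hold. PUB25, a dim U-box ligase gene, had means of 20.7 in mock and 8.78 with estradiol. That is a larger relative fall than in AT1G26800, with means of 114 and 69.6. Since AT1G26800 was chosen for its fall, its place on the log2 scale is a description. The groups lay apart with estradiol lower in 6 of the 49 and with estradiol higher in 5, beside 7.74% and 5.79% of all probe sets.

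RING-type ligases with a known role are the class of AT1G26800 itself, and 5 of 36 listed genes were measured. AT5G53360, of the SINA family of RING ligases, had signals of 50.2, 47.3 and 37.7 in mock, and 57.1, 58.7 and 59.6 with estradiol (difference on the log2 scale 0.29, limma adjusted p = 0.554). RING1, a ligase known from programmed cell death, had 49.5, 51.9 and 45.5 in mock, and 83.1, 57.7 and 57.9 with estradiol (difference on the log2 scale 0.33, limma adjusted p = 0.599). In both genes every estradiol array lay above every mock array, opposite to AT1G26800, and neither passed the threshold. The groups lay apart with estradiol higher in 2 of the 5 and lower in 1, beside 5.79% and 7.74% of all probe sets.

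The remaining 3 RING ligases had negative differences and were named after their values were seen. BRH1, a brassinosteroid-responsive RING-H2 protein, had signals of 204, 225 and 253 in mock, and 196, 201 and 176 with estradiol, so its groups lay apart by a small margin. Its log2 difference was -0.23, that of ATL8, a membrane-anchored RING-H2 protein, was -0.16, and that of XERICO, a RING-H2 protein of abscisic acid homeostasis, was -0.14. ATL8 and XERICO had overlapping groups.

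Of the 30 listed ligases and shuttle factors of protein quality control, 4 were measured, and CHIP, the best known chaperone-linked ligase, was not among them. The measured ones were 3 U-box ligases that are known mainly from immune and drought signalling, and AT2G47970, a relative of the CDC48 cofactor NPL4. PUB23 had signals of 72.3, 58.2 and 57.7 in mock, and 56.3, 47.7 and 45.4 with estradiol (difference on the log2 scale -0.26, limma adjusted p = 0.63). Its groups lay apart by a small margin. Groups lay apart with estradiol lower in 1 of the 4, beside 7.74% of all probe sets. PUB24, a close relative of PUB23, had a difference on the log2 scale of 0.16 (limma adjusted p = 0.732), and PUB22, named after its values were seen, had 0.17. The list therefore held no common direction, with 2 of 4 differences positive and a median of 0.07, beside 9754 of 22746 positive over all probe sets.

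Ubiquitin itself and the enzymes that hand it to a ligase were represented by 12 of 40 listed genes, all of them E2 genes. UBC27, an E2 with a ubiquitin-associated domain, had signals of 252, 340.3 and 245 in mock, and 382, 369.5 and 379.9 with estradiol (difference on the log2 scale 0.43, limma adjusted p = 0.5). UBC19, a relative of E2 enzymes of the anaphase-promoting complex, had a difference on the log2 scale of -0.18 (limma adjusted p = 0.675). The other 10 lay between -0.33 and 0.13. Of the 12 differences, 7 were negative, beside 12992 of 22746 over all probe sets, with a median of -0.01.

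A further 28 of 170 ubiquitin genes, picked by their RefSeq names after the deposited values had been seen, were measured. They are mostly ubiquitin-specific proteases and U-box ligases. UBP18, a ubiquitin-specific protease, had the smallest p among them, with signals of 88.9, 65.0 and 67.8 in mock, and 106, 99.1 and 107 with estradiol (difference on the log2 scale 0.43, limma adjusted p = 0.443). PUB25, a U-box ligase known from cold signalling, had the most negative difference at -0.56 (limma adjusted p = 0.512), close to that of AT1G26800. It was much dimmer, though, with 24.6, 24.5 and 12.9 in mock, and 12.5, 10.04 and 3.83 with estradiol. Most of these values lay under the pseudocount of 16, so the log2 difference understates the relative fall of PUB25.

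**Figure D3:**
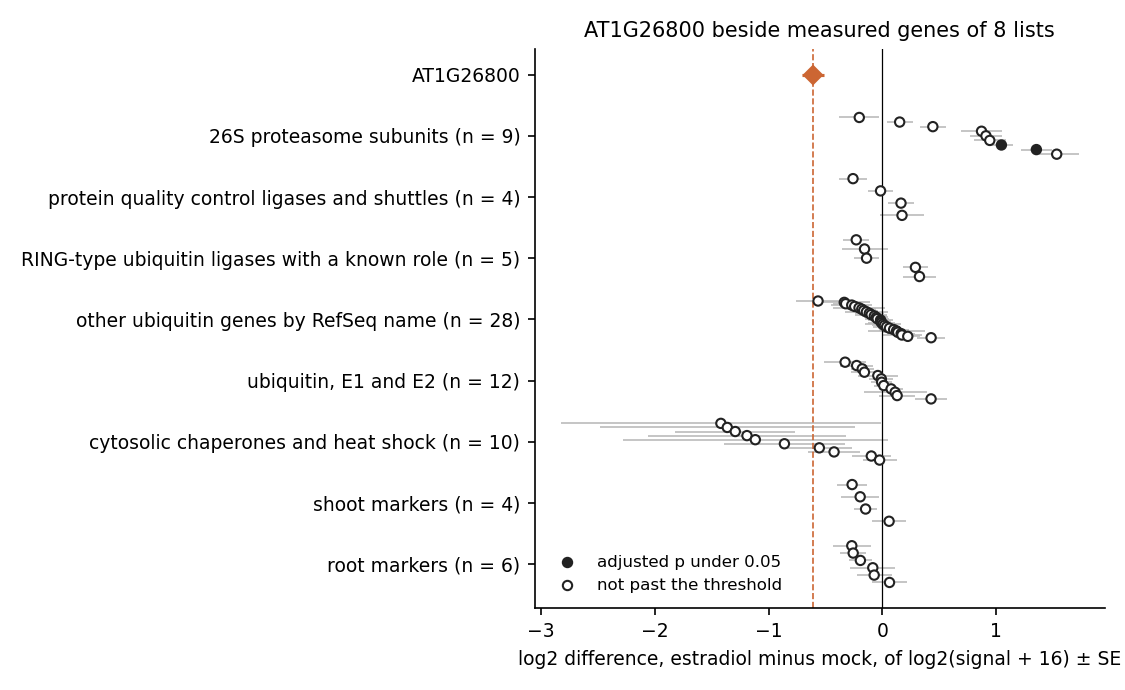
Log2 difference, estradiol minus mock, with its SE from limma, for AT1G26800 (diamond, dashed line) and for each measured gene of 8 lists, where filled points passed an adjusted p under 0.05. The 49 genes of the 4 ubiquitin lists lie between -0.56 and 0.43 and the filled points are 2 proteasome genes.

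Genes that mark shoot or root tissue were compared because the samples were whole seedlings. Of 24 listed shoot markers 4 were measured, mostly LHCB4 genes, and of 14 listed root markers 6 were measured. The 4 measured shoot markers had a median log2 difference of -0.17 and the 6 measured root markers one of -0.14, and none passed the threshold. At an unadjusted p under 0.05, 0 passed as well, beside 900 higher and 1042 lower of all 22746 probe sets. LHCB4.3, a light-harvesting protein gene, had a difference on the log2 scale of -0.27 (limma adjusted p = 0.647), and LHCB4.2 had -0.15 (adjusted p = 0.737). EXPA18, a root hair expansin gene, had -0.26 (limma adjusted p = 0.606), and AT2G47540 had -0.19 (adjusted p = 0.654). In EXPA18 and AT2G47540 every estradiol array lay below every mock array, as in AT1G26800, by a small margin. The groups lay apart in this way in 2 of the 6 root markers and 0 of the 4 shoot markers, beside 7.74% of all probe sets.

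The summed signal of the shoot markers was 10341 to 10945 on the mock arrays and 8590 to 10778 on the estradiol arrays. That of the root markers was 2679 to 2855 in mock, and 1836 to 2807 with estradiol. Most of the root marker sum came from 1 gene, PYK10, at 2445 to 2606 in mock and 1634 to 2548 with estradiol. In both lists the lowest array was estradiol replicate 2, which was also the lowest for AT1G26800, at 64.95. No marker was at 0. Without estradiol replicate 2 the log2 difference of AT1G26800 was -0.57. The part of tissue make-up in it was not tested further.

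Among the 5 annotated genes on each side of AT1G26800 on chromosome 1, 1 had a probe set of its own. It was AT1G26795, the gene in the fifth place before it, with signals of 4.45, 10.5 and 3.31 in mock, and 7.57, 7.27 and 5.82 with estradiol. All of these lie under the pseudocount, so the log2 difference of 0.06 (limma adjusted p = 0.935) carries little information. The nearer neighbours were not analysed here.

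Of 4786 candidate genes, those with a mean signal of at least 32 and at least 0.5 of the log2 range of AT1G26800, 35 had a Pearson r over 0.9 to it across the 6 arrays and 110 had one under -0.9. The 6 points fall into 2 treatment groups and share the arrays and their scaling, so a high r mostly states that a gene had separate groups with little spread. All 35 had every estradiol array below every mock array, beside 7.74% of all probe sets. An r this high to a gene with separate groups nearly entails that, so nothing is read from it. The likeness is given as a description.

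The gene most like AT1G26800 was AT1G76880, which encodes a trihelix DNA-binding protein (r = 0.986). Its mock signals were 74.8, 72.3 and 71.6 against 51.7, 51.5 and 50.9 after estradiol, a log2 difference of -0.40. NAI1, a bHLH factor needed for endoplasmic reticulum bodies, followed with an r of 0.973 and signals of 52.2, 54.1 and 52.1 against 34.5, 30.5 and 39.03. SMZ, an AP2-type repressor of flowering, had an r of 0.969 and signals of 46.7, 38.5 and 41.9 against 30.02, 24.9 and 27.0. These 3 genes were dimmer than AT1G26800 on every array and had smaller log2 differences.

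AT4G14270 (r = 0.965) had the log2 difference nearest to that of AT1G26800 among the 8, at -0.53, with signals of 227, 185 and 205 against 139, 137 and 134. The others were AT3G51500 (r = 0.959), AT1G72030 (r = 0.958), AT2G24240, a BTB domain protein gene (r = 0.957), and AT1G31920 (r = 0.950). Their log2 differences lay between -0.48 and -0.29. In NAI1, AT3G51500, AT2G24240 and AT1G31920, as in AT1G26800, estradiol replicate 3 was the highest of the estradiol arrays. It is the array with the raised 3'/5' ratio, and the part of RNA quality in this shared order was not tested.

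The genes with the lowest r mirrored AT1G26800, and 3 of them are described. AT1G60080, an exoribonuclease-family gene (r = -0.996), had signals of 42.7, 50.3 and 48.4 in mock, and 79.3, 82.4 and 73.1 with estradiol. Its lowest mock array was replicate 1, where AT1G26800 was highest, and its highest estradiol array was replicate 2, where AT1G26800 was lowest.

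AT5G03320, a protein kinase gene, had an r of -0.988 and a log2 difference of 0.79, which passed limma's threshold (adjusted p = 0.0493). The call was lost whichever single array was left out, with adjusted p from 0.0834 to 0.315 in limma, while its log2 difference lay between 0.76 and 0.82. It was also lost with a pseudocount of 1, with quantile normalization and with either smaller set of arrays. AT3G46600, a GRAS-family gene, had an r of -0.987 and signals of 117, 114 and 121 in mock, and 183, 185 and 177 with estradiol (difference on the log2 scale 0.57). These 3 genes were thus higher on every estradiol array than on any mock array, with log2 differences between 0.57 and 0.79. Groups lay apart in this direction for 5.79% of all probe sets, and the 3 were picked for a low r, which nearly entails it.

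**Figure D4:**
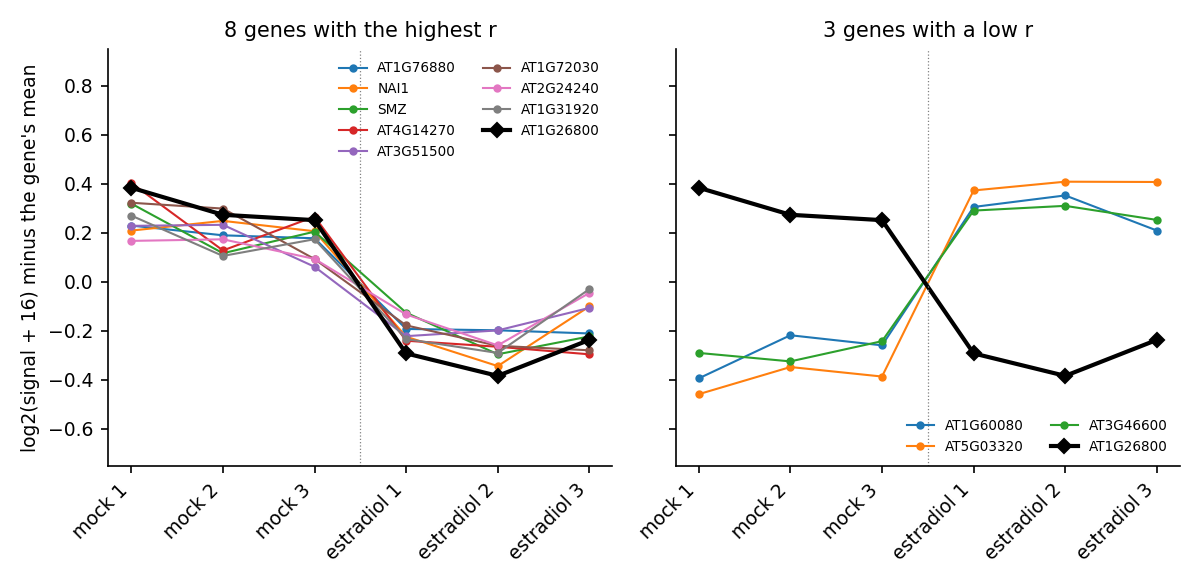
Values of log2(signal + 16) minus each gene's mean over the 6 arrays, for AT1G26800 (black) with the 8 genes of highest r (left, r from 0.950 to 0.986) and 3 genes among those of lowest r (right, r from -0.996 to -0.987). Lines join the values of 1 gene, and the order of arrays within a group has no meaning.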

How the data were processed

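Total RNA was biotin-labelled and hybridised to 1-colour arrays, 3 per group, per the labels. The deposited values are 1 linear intensity per probe set, scaled by the authors to a common 2% trimmed mean of about 100.01 per array. The submitters' processing notes name GCOS and affy but no version, role or summary method. Of 22810 probe sets, 64 controls were left out and 22746 were tested in R 4.3.3 with limma 3.58.1 (eBayes after lmFit, on log2(intensity + 16), two-sided, Benjamini-Hochberg). Log2 differences on this scale understate the change of dim probe sets. Gene names came from the platform annotation, updated through Entrez IDs to TAIR10.1: 13513 probe sets have 1 gene, 503 several and 8730 none listed. A gene with several was represented by the brightest.

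The gene, the 8 lists and the tests were chosen with earlier results of these data known. Named genes were those past the threshold in a list (up to 4) or else the 2 with the smallest p, the 8 highest and 4 lowest r (1 of the latter is not reported here), and measured neighbours. Relatives by protein sequence were not analysed here. Alternatives changed the pairing, scaling, filter, pseudocount, variance model, weights and arrays. The scripts were tested on simulated data. Figures used matplotlib 3.10.9 in Python 3.11.15.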

Additional observations from a re-analysis of the deposited data

How the results depend on the processing

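The log2 difference of AT1G26800 was negative in all 16 alternatives run. Every estradiol array lay below every mock array, so leaving out arrays or changing the pseudocount could not reverse its sign. The gene was also chosen for its fall, so nothing is read from the sign. The difference was -0.71 with a pseudocount of 1 and -0.42 with 64, and leaving out each array in turn gave -0.64 to -0.57. The number of probe sets called higher, 26 in the report, was 17 with a replicate block, 0 with a pseudocount of 1, 11 with 64, 96 without the dimmest 25%, 91 with array weights, 0 without replicate 3 of both groups and 0 with mock replicate 3 as the only control. It ranged from 0 to 57 when each array was left out, and 1 was called lower with that filter and 1 with array weights, neither of them with a gene listed. Of the 9 proteasome genes, 2 in the report, the number called was 1 with the replicate block, 0 and 1 with pseudocounts of 1 and 64, 5 with the filter, 4 with array weights, 0 to 2 when each array was left out, and 0 in both sets with fewer arrays. The cause was not tested. In the other 7 lists the number called stayed at 0 throughout. Of the 8 genes most like AT1G26800, 5 were also among the 8 with the smallest Euclidean distance. Replicate numbers were not taken to pair arrays: deviations of same-numbered arrays correlated at 0.0908, 0.113 and 0.329, and mock replicate 1 correlated best with estradiol replicate 2. The value of 0.329, for replicate 3, was the highest of any mock and estradiol array. A replicate 3 array set against another number of the other group gave -0.25 to -0.181. Whether replicate 3 shared a batch was not tested. With the replicate block the difference of AT1G26800 was again -0.61, and AT5G03320 was not called (limma adjusted p = 0.11). The alternatives for relatives by protein sequence were not run, since no protein table was used here.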
